A study of Drosophila melanogaster with 3 samples.

Results

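The genes described are box C/D small nucleolar RNAs (snoRNAs) of Drosophila melanogaster that guide methylation of ribosomal RNA (rRNA). They need not be all the genes of that kind. They were chosen by symbol, as every gene of the authors' deposited table whose name begins with snoRNA:Me18S or snoRNA:Me28S. The rule gave 75 of the 3546 listed genes, 21 named for 18S rRNA and 54 for 28S rRNA. No measured value entered the choice. The rule leaves out snoRNA:Me5.8S-G74, named for 5.8S rRNA, and any guide whose symbol has another form. Such genes count among the other snoRNA genes below. In each symbol the letter and number name the rRNA base that the snoRNA is assigned to, and a final small letter marks gene copies assigned to one base. The 75 genes carry 51 such target names, and 16 of these names are shared by 2 or more copies, 40 genes in all. Me18S-A28a, Me28S-A1666a, Me28S-A3407a, Me28S-G3081a and Me28S-G3277a carry a letter, but no other member shares their target names. Copies under symbols of another form were not sought, so counts and sums of copies cover members only.

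The libraries hold small RNA of whole male heads, taken from adult flies. In the test flies the neuronal driver nSyb-GAL4 expressed Sxl-RAC from UAS-SxlRAC, and the ubiquitous temperature-sensitive repressor tub-GAL80ts was present. Sex-lethal (Sxl) is an RNA-binding protein, best known as the switch of sex determination in the fly. The control carried nSyb-GAL4 and UAS-mCherry at attP2, and the labels do not say whether the control also carried tub-GAL80ts. Flies were raised at 18 °C and kept at 29 °C for 4 days after eclosion, a temperature at which the repressor is inactive. The labels list 3 Sxl-RAC samples and do not say whether they came from separate cultures, so that p-values measure the spread between libraries, which may be technical. Whole heads hold neurons and other cells, and fewer cells of a type cannot be told apart from less RNA per cell.

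Box C/D snoRNAs bind their target by a short antisense stretch and place the methyltransferase fibrillarin, within a complex of core proteins, at one base of the rRNA, where it adds a methyl group to the ribose. In animals most of them are cut out of the introns of host genes, among them ribosomal protein genes and long noncoding hosts whose spliced product codes for no protein, which in flies are named Uhg genes. Another family, the box H/ACA snoRNAs, guides the change of uridine to pseudouridine and carries the names snoRNA:Psi18S and snoRNA:Psi28S in flies. A size-selected library of small RNA can hold whole snoRNAs and fragments of them, and the deposited values do not separate these.

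The authors' deposited table gives for each gene 1 mean normalised count over all libraries, a log2 fold change of Sxl-RAC over control and its standard error, with no column per library. Whole reads per library were recovered from these values by arithmetic. Each read adds to the mean count an amount set by its library alone, so a mean count is built from whole reads. The fold change and standard error then narrow how the reads divide among libraries. The recovery gave 6 libraries, 3 of Sxl-RAC and 3 of control, and whole reads for all 69 members with reads and for 244 of 248 snoRNA genes with reads. Refitting these reads gave back the deposited log2 fold changes to within 7.47e-10. For 13 members the reads came from the mean count alone. Reads of the other members were picked to match the fold change within 1.5e-09, so for them the match is no check. Recovered libraries are not tied to a listed sample and carry no replicate number. They are called control A, B and C and Sxl-RAC A, B and C here, by falling size factor. Reads in snoRNA genes numbered 18795, 10937 and 8042 in the controls and 10547, 8792 and 6842 in the Sxl-RAC libraries, so that the deepest library had 2.79 times the size factor of the shallowest. Values per library below are recovered reads divided by the size factor of the library, called normalised reads.

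The members made up a stable share of snoRNA reads. They took 59.5%, 57.2% and 59.2% of the reads in snoRNA genes of control A, B and C, and 57.2%, 59.3% and 60.0% in Sxl-RAC A, B and C. The arms overlapped, at means of 58.7% ± 1.25 (SD, n = 3) and 58.8% ± 1.45 (SD, n = 3). The H/ACA rRNA guides, although more numerous with 106 listed genes, took 7.24% ± 0.37 (SD, n = 3) and 7.03% ± 1.73 (SD, n = 3). Neither share separated the arms (exact two-sided permutation p = 0.8 for each, 4 shares tested, adjusted p = 0.8, and 0.1 is the smallest p that 3 against 3 libraries allow).

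Levels varied widely among members. Of the 75 genes, 69 had reads, 57 reached a mean normalised count of at least 10 and 16 reached at least 100. The 10 highest by mean count were 6 18S guides and 4 28S guides, and these 10 held 52.2% of all member counts. Per 100 nt of annotated gene, the level ranged 78.4-fold among the members that reached a mean count of 10. The order per length was led by Me18S-G1620 at a mean count of 1161 per 100 nt, followed by Me28S-A2564 at 580.3, Me18S-A1806 at 552.1, Me18S-C1831 at 375.7 and Me18S-A425 at 372.2. The annotated length ranges from 46 to 149 nt with a median of 79, and Me28S-A2564 is the shortest, which raises its level per length.

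The authors' deposited table lists 6 members at 0. These were Me18S-A1374, Me18S-G1506, Me28S-A2486, Me28S-A2629, Me28S-C2789 and Me28S-C993. The other 12 members under a mean count of 10 gave wide intervals, with deposited standard errors in the authors' deposited table between 0.61 and 1.70 on the log2 scale.

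Between Sxl-RAC and control, 3 members changed in the authors' deposited table at an adjusted p under 0.05. Me18S-A425 and Me18S-A1576 fell and Me18S-A1806 rose. All 3 are 18S guides and all 3 are among the 10 most abundant members. They are 4.35% of the 69 members with an adjusted p, against 5.14% called over all 1128 genes of the table with an adjusted p and 1.21% of the 248 snoRNA genes, where they are the only calls. By direction, 1.45% of members were higher and 2.9% lower, against 3.37% and 1.77% over all genes and 0.403% and 0.806% of snoRNA genes. At an unadjusted p under 0.05 the shares were 8.7% of members, 4.84% of snoRNA genes and 9.04% of all genes. None of the 50 28S guides with reads was called by the authors' DESeq2 test, 3 of them had an unadjusted p under 0.05, and limma on recovered reads called 1, Me28S-G3253.

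**Figure D1:**
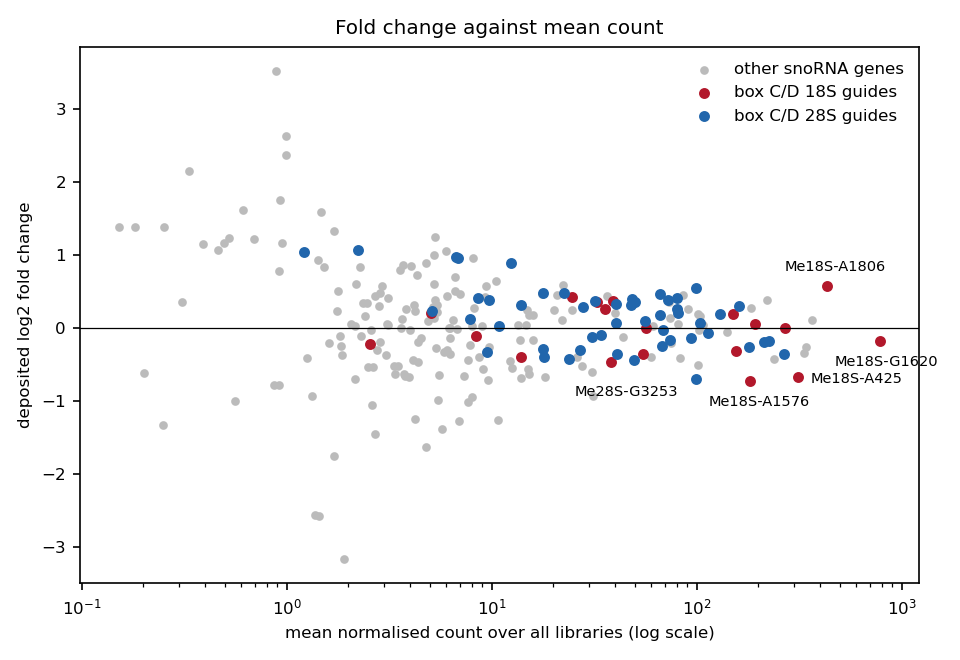
Deposited log2 fold change, Sxl-RAC over control, against the mean normalised count over all libraries on a log axis, with 1 point per snoRNA gene: 18S guides in red, 28S guides in blue, other snoRNA genes in grey. The 3 called members lie at mean counts of 182.0 to 430.6, to the right of most snoRNA genes.

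As a group the members lay near no change. The median deposited log2 fold change of the 57 members at or above a mean count of 10 was 0.06, with 31 above 0 and 26 below. It was 0.00 for the 16 18S guides and 0.08 for the 41 28S guides, beside 0.05 for all 108 snoRNA genes at that count and -0.01 for all 529 genes of the table at that count. The authors scaled snoRNA genes by size factors of their own class, which sets the typical snoRNA near 0. On the scale of the microRNA class, each log2 fold change moves by -0.15 and the members' median becomes -0.09. The 95% interval of the fold change (deposited fold change and standard error) lay within a 2-fold change either way for 40 of the 57 members. For the remaining members the depth does not show whether they changed by less than that.

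**Figure D2:**
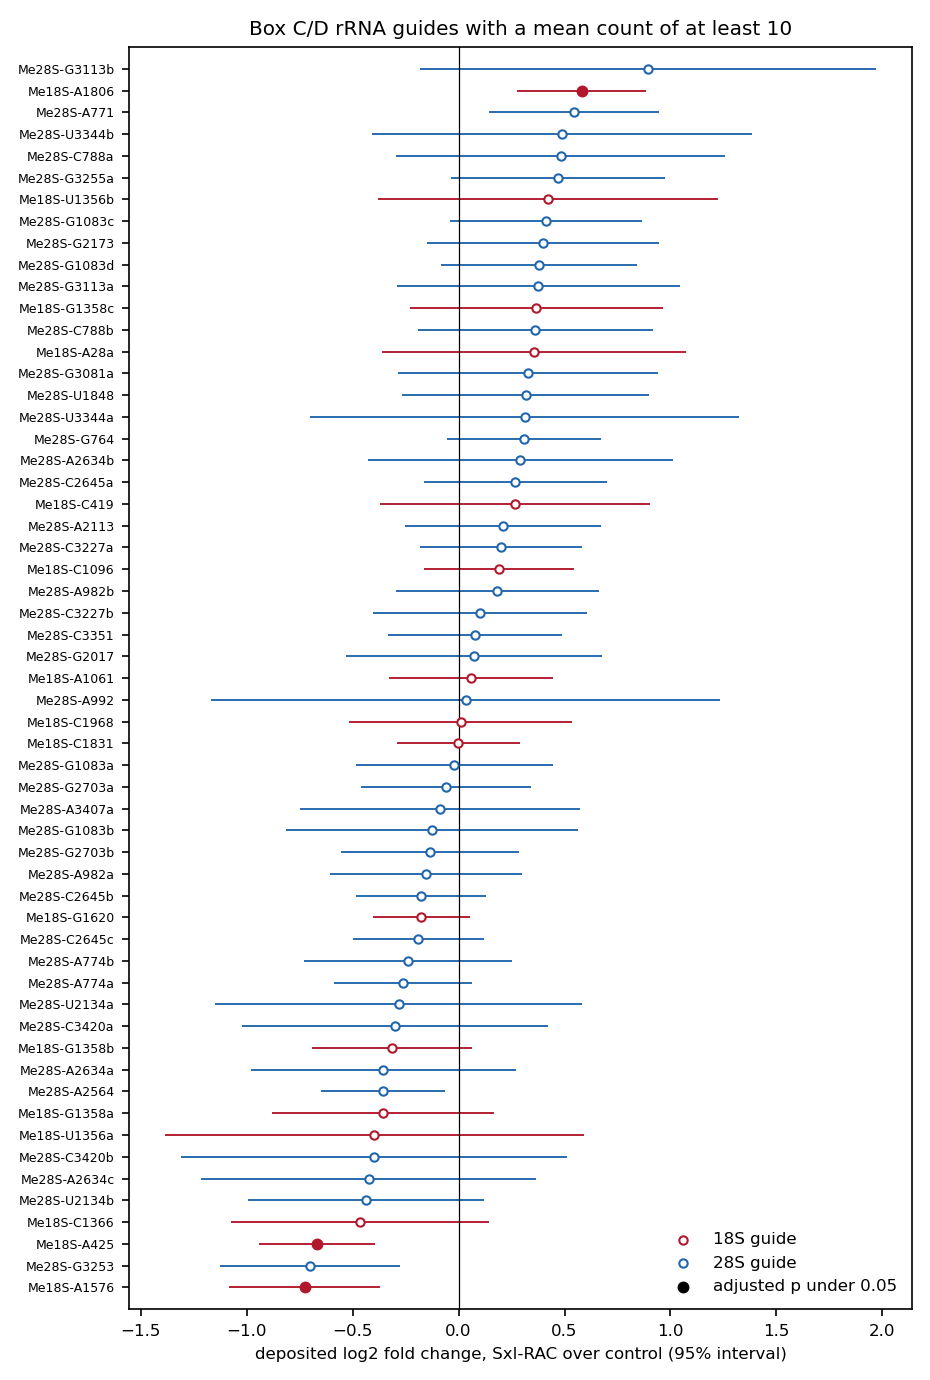
Deposited log2 fold change with its 95% interval for each of the 57 members with a mean count of at least 10, ordered by fold change, 18S guides in red and 28S guides in blue, with filled points for an adjusted p under 0.05. Intervals widen for low counts, and 6 members have an interval that excludes 0.

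Me18S-A425 had the smallest p. It lies on chromosome 3R from 11222841 to 11222924 on the plus strand (Ensembl release 115, build BDGP6.54), within RpL3, a gene of the large ribosomal subunit, where 1 of 4 annotated transcripts has an exon. Its normalised reads were 372.3, 406.3 and 371.6 in control A, B and C and 224.7, 249.3 and 251.8 in Sxl-RAC A, B and C. All 3 Sxl-RAC libraries were below all controls, at 383.4 ± 19.8 (SD, n = 3) in control and 241.9 ± 15.0 (SD, n = 3) in Sxl-RAC. The authors' deposited table gives a log2 fold change of -0.67 (SE 0.14, adjusted p = 0.000353). The call was kept when any 1 of the 6 recovered libraries was left out. All fits without 1 library kept the dispersion, the spread of a gene beyond counting error, found from all 6 libraries.

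Me18S-A1576 had the most negative fold change among members with a mean count of at least 10. It lies on chromosome 2L from 9894795 to 9894907, minus strand, in an intron of both annotated transcripts of Uhg2. Its normalised reads were 236.1, 221.7 and 224.7 in the controls and 172.8, 117.5 and 119.1 in Sxl-RAC A, B and C, without overlap of the arms, although Sxl-RAC A stood nearer to the controls than the others. The authors' deposited table gives a log2 fold change of -0.73 (SE 0.18, adjusted p = 0.00793). Left out in turn, control A, Sxl-RAC B and Sxl-RAC C each ended the call, with adjusted p of 0.0777, 0.19 and 0.114 and log2 fold changes of -0.70, -0.62 and -0.64.

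Me18S-A1806 was the only member called higher. It lies on chromosome 3L from 7639717 to 7639794, plus strand, with no other annotated gene over it. Its normalised reads were 333.4, 345.4 and 353.4 in the controls and 410.2, 500.7 and 640.7 in Sxl-RAC A, B and C. The controls were close together and the Sxl-RAC libraries spread, at 517.2 ± 116 (SD, n = 3) against 344.1 ± 10.1 (SD, n = 3), without overlap. The authors' deposited table gives a log2 fold change of 0.58 (SE 0.16, adjusted p = 0.0145). These per-library values are uncertain, since 3 sets of whole reads gave the deposited row to within 1.5e-09. In the other 2 sets the arms overlapped. A single set for another abundant member does not show more certainty. At means of 120 or more, sets with a library beyond 2-fold of its arm's mean were not sought, and beyond 1.5-fold at 600 or more. The Me18S-A1806 set given here missed the deposited log2 fold change by 1.07e-10 and the other 2 by 1.17e-09 and 1.23e-09, more than the 7.47e-10 seen at most among the recovered genes. On the microRNA scale the log2 fold change was 0.43 and the call was lost (adjusted p = 0.145). The call was also lost without control A, control B, Sxl-RAC B or Sxl-RAC C, with adjusted p of 0.117, 0.0603, 0.0644 and 0.805, and log2 fold changes of 0.56, 0.59, 0.60 and 0.40. These fits without 1 library used the read set given here, and the other 2 sets were not fitted in this way.

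**Figure D3:**
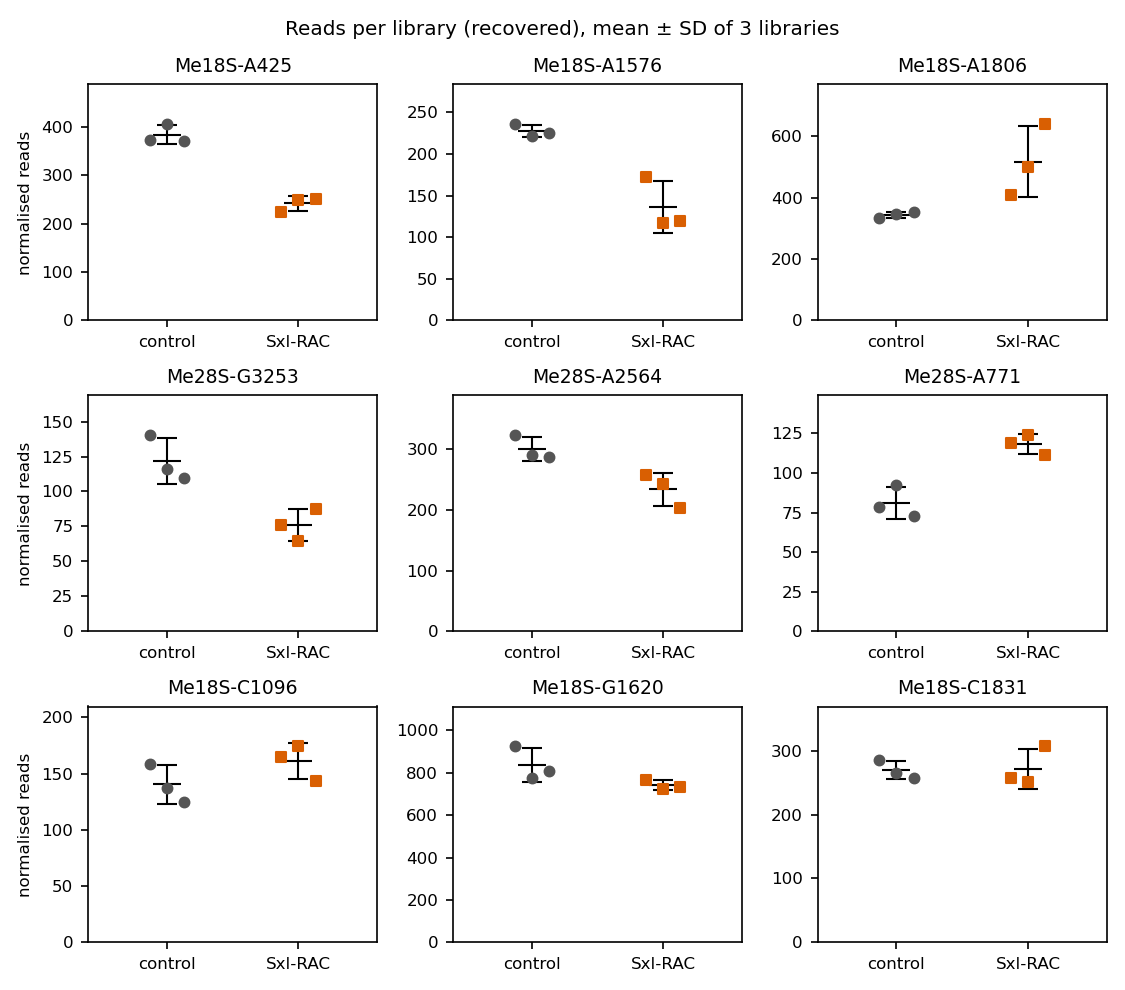
Normalised reads per recovered library for 9 members, controls as grey circles and Sxl-RAC libraries as orange squares, with the mean and SD of 3 libraries, each axis from 0. Me18S-A425 and Me18S-A1576 are lower in every Sxl-RAC library and Me18S-C1831 overlaps. Me18S-A1806 is higher in every Sxl-RAC library in the read set plotted, and overlaps in the other 2 sets.

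Guides of the same host as a called member had fold changes nearer to 0. RpL3 holds 3 members. Beside Me18S-A425 at -0.67, the authors' deposited table puts Me18S-C1096 at 0.19 (SE 0.18, adjusted p = 0.931) and Me28S-G2017 at 0.07 (SE 0.31, adjusted p = 0.983). Me18S-C1096 had 158.9, 137.0 and 125.1 normalised reads in the controls and 164.6, 174.6 and 143.2 in Sxl-RAC A, B and C, with overlapping arms. Me28S-G2017 had 32.4, 37.1 and 49.8 normalised reads in the controls and 40.9, 42.8 and 39.2 in the Sxl-RAC libraries, again with overlap. The 95% intervals of Me18S-A425 (-0.94 to -0.40) and Me18S-C1096 (-0.16 to 0.54) did not overlap. The difference between the 2 members was not tested.

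In Uhg2 the second member is Me18S-G1620, the most abundant of all. It lies on chromosome 2L from 9894477 to 9894544, minus strand, also in an intron of both transcripts of Uhg2. Its normalised reads were 927.3, 774.5 and 807.6 in the controls and 766.8, 724.7 and 734.2 in the Sxl-RAC libraries. Every Sxl-RAC library was below every control, by a small amount, with means of 836.5 ± 80.4 (SD, n = 3) and 741.9 ± 22.1 (SD, n = 3). The authors' deposited table gives a log2 fold change of -0.18 (SE 0.12, adjusted p = 0.908). Me18S-A1576 and Me18S-G1620 differed 7.21-fold in level per length.

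Among the 28S guides, Me28S-G3253 came nearest to a call. It lies on chromosome 3L from 9510720 to 9510807, minus strand, in an intron of RpS9, a gene of the small ribosomal subunit. Its normalised reads were 140.5, 116.1 and 109.3 in the controls and 76.4, 64.8 and 87.4 in Sxl-RAC A, B and C, so that the arms did not overlap. The authors' deposited table gives a log2 fold change of -0.70 (SE 0.22, adjusted p = 0.077). It passed 0.05 when the deposited p-values were adjusted over every gene of the table with a p (adjusted p = 0.0489), and on the microRNA scale (log2 fold change -0.85, adjusted p = 0.00666).

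Me28S-A2564, an annotated stretch of 46 nt, had 323.1, 290.2 and 286.6 normalised reads in the controls and 256.5, 241.6 and 203.5 in the Sxl-RAC libraries, all of the latter below all controls. Its deposited log2 fold change was -0.36 (SE 0.15, adjusted p = 0.598 in the authors' deposited table), and on the microRNA scale it was -0.51 with an adjusted p of 0.041. Me28S-A771, in an intron of Sf3b3, lay in the other direction, with 78.4, 92.3 and 72.9 normalised reads in the controls and 119.2, 124.1 and 111.6 in the Sxl-RAC libraries. Its arms did not overlap either, and the authors' deposited table gives 0.54 (SE 0.20, adjusted p = 0.398). Me28S-G3255a in Uhg4 (0.47, adjusted p = 0.908) and Me28S-G1083c in Nop60B (0.41, adjusted p = 0.908) complete the 8 smallest p-values in the authors' deposited table.

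Arms without overlap were no rarity at this depth. Among the 57 members with a mean count of at least 10, every Sxl-RAC library lay above every control for 8 (14.0%) and below for 8 (14.0%). Over all 107 snoRNA genes with recovered reads at that count the shares were 12.1% and 12.1%. Both directions together made 28.1% of the members and 24.3% of the snoRNA genes. By target, 4 of 16 18S guides lay below and 2 above, and 4 of 41 28S guides lay below and 6 above. Of the 10 most abundant members, 6 lay below and 1, Me18S-A1806, above in the read set kept for it. The 10 most abundant members took 54.1% ± 0.88 (SD, n = 3) of member reads in control and 50.3% ± 1.17 (SD, n = 3) in Sxl-RAC libraries. The 18S guides took 49.4%, 47.6% and 48.3% of member reads in control A, B and C and 47.1%, 46.1% and 47.4% in Sxl-RAC A, B and C. In both shares the arms did not overlap, and the exact two-sided permutation p was 0.1, the smallest possible, with an adjusted p of 0.2 over 4 shares. These shares do not depend on size factors, and they use the read set kept for Me18S-A1806. Both shares hold all the called members, so they are not separate from those calls.

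Of the other abundant members, Me18S-C1831 and Me18S-A1061 had overlapping arms. Me18S-C1831, in an intron of RpL27A, had 285.9, 265.5 and 257.5 normalised reads in the controls and 256.5, 250.4 and 307.5 in the Sxl-RAC libraries. Its deposited log2 fold change was 0.00 to 2 decimals in the authors' deposited table (95% interval -0.29 to 0.29). Me18S-A1061, in an intron of Uhg5, had 196.7, 203.6 and 160.3 against 184.6, 146.0 and 260.8 normalised reads, with the highest and the lowest value both in Sxl-RAC libraries, and the authors' deposited table gives 0.06 (95% interval -0.33 to 0.45). On the microRNA scale Me18S-A1061 was at -0.09. Me28S-A774a, in RpS12, had 205.9, 192.2 and 187.0 against 163.7, 144.9 and 182.4 normalised reads, below in every Sxl-RAC library, with -0.26 (SE 0.17, adjusted p = 0.908) in the authors' deposited table.

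Among the 57 members that reached a mean count of 10, the 5 lowest fold changes included Me18S-A1576, Me28S-G3253 and Me18S-A425 and the 5 highest Me18S-A1806 and Me28S-A771, all described above. The highest of these 57 values in the authors' deposited table belonged to Me28S-G3113b at 0.89, with a standard error of 0.55 and an adjusted p of 0.908, and its normalised reads were 6.48, 6.66 and 13.4 in the controls and 12.7, 14.3 and 21.1 in the Sxl-RAC libraries. Me28S-U3344b, on the X chromosome in Stt3A, was at 0.49 (SE 0.46) and Me28S-C788a at 0.48 (SE 0.40) in the authors' deposited table, neither called. Among the lowest, Me18S-C1366 in Uhg5 was at -0.46 (SE 0.31) and Me28S-U2134b in RpL13A at -0.44 (SE 0.28) in the authors' deposited table, again not called.

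By annotation, 72 of the 75 members lie in a host gene on their own strand, and 61 lie in an intron of every transcript of that host. The hosts number 32. Where several genes lay over a member on its strand, a Uhg gene was taken as host first, then a protein-coding gene. The 3 copies of Me28S-A2634 lie in both Uhg7 and RpL23A and were counted under Uhg7. The Uhg genes, 7 in number, hold 30 members and 45.2% of member counts. A further 12 hosts are ribosomal protein genes, with 18 members and 30.9% of the counts. The other 13 hosts have 24 members and 16.5% of the counts, and 3 members have no host, among them Me18S-A1806. Counting the members that reached a mean count of 10, the median deposited log2 fold change was -0.01 for the 24 in Uhg genes, -0.24 for the 17 in ribosomal protein genes and 0.36 for the 15 in other genes. The ribosomal protein hosts had 10 of 17 members below 0 and the other hosts 11 of 15 above 0. The same split over the snoRNA genes that are not members gave 0.05 for 15 genes in ribosomal protein genes and -0.12 for 15 in other genes, the opposite order. These medians are descriptions that rest on the choice of host given above, and members of 1 host share a transcript.

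**Figure D4:**
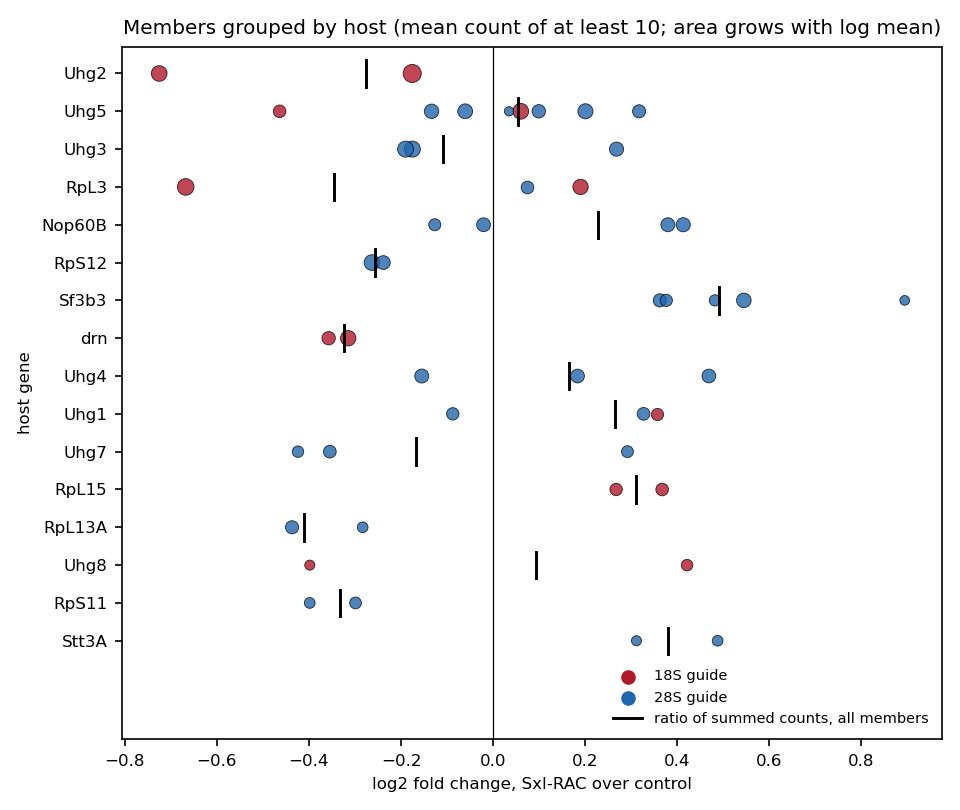
Deposited log2 fold change of members with a mean count of at least 10, on the x axis, by host gene with 2 or more such members, on the y axis, 18S guides in red and 28S guides in blue, point area growing with the log mean count. The black bar is the log2 ratio of the summed normalised reads of all members of the host. Members of Sf3b3 lie at 0.36 to 0.89, while those of RpL3 and Uhg5 lie on both sides of 0.

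Of the 17 hosts with 2 or more members, 4 had summed member reads higher in every Sxl-RAC library than in every control, 4 had them lower and 9 overlapped. No such share was taken for hosts of other snoRNA genes, so these counts do not set the members apart. The share of 24.3% without overlap among all snoRNA genes is for single genes, not for sums. The hosts named next were picked after their values were seen, and no test was run on them. The widest gap was at Sf3b3, which encodes a subunit of the splicing factor SF3b and holds 5 members, all 28S guides. Their summed normalised reads were 173.5, 187.4 and 179.7 in the controls and 238.3, 254.7 and 266.8 in the Sxl-RAC libraries, a log2 ratio of arm means of 0.49. All 5 had a deposited log2 fold change above 0, from 0.36 to 0.89 in the authors' deposited table, and none was called. Of these 5, 4 also lie in introns of lncRNA:CR45184 on the same strand. The row of lncRNA:CR45184 was at 0.49 (SE 0.20, adjusted p = 0.595 in the authors' deposited table). The summed mean counts of the snoRNA genes within its span came to 100.4% of that row. Reads summed over the 2 members of Uhg2 gave a log2 ratio of -0.28 and those over the 3 members of RpL3 gave -0.34. RpL13A, with 2 members, was at -0.41. Nop60B, which encodes the pseudouridine synthase of the H/ACA complex and holds all 4 Me28S-G1083 copies, was at 0.23. Its members split, with Me28S-G1083c and Me28S-G1083d at 0.41 and 0.38 and Me28S-G1083a and Me28S-G1083b at -0.02 and -0.13 in the authors' deposited table.

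Levels within a host ranged from near equal to far apart. The 3 members of dom lay within 1.24-fold of each other per length and the 2 of RpL15 within 1.13-fold. The 10 members of Uhg5 ranged from 3.37 to 252.7 in mean count per 100 nt, a 75.0-fold range, with Me18S-A1061 the highest and Me18S-G1952 the lowest. The 4 of Uhg4 ranged 64.7-fold and the 5 of Uhg1 19.2-fold. In Sf3b3 the range was 8.98-fold, in RpL3 it was 8.57-fold and in RpS12 it was 2.64-fold.

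The rows of the Uhg genes themselves offer no separate measure of the host RNA. In the authors' deposited table each of the 7 Uhg rows had a mean count close to that of the snoRNA genes within its span, whose summed mean counts came to 100.9% to 101.4% of the row. Uhg2, for example, had a mean count of 1229 against 1246 for its 4 snoRNA genes. The Uhg rows and the snoRNA rows were scaled separately. None of the 7 Uhg rows was called, with log2 fold changes from -0.11 to 0.25 in the authors' deposited table, 0 of them at an unadjusted p under 0.05. Reads at 3 members also appear in genes annotated on the other strand. The row of asRNA:CR31144, opposite Me18S-A425 and Me18S-C1096, had a mean count of 459.7, of which the summed mean counts of the 2 members came to 100.8%, and its log2 fold change was -0.30 (SE 0.15, adjusted p = 0.971 in the authors' deposited table). The row of asRNA:CR45874, opposite Me28S-G3253, had a mean count of 102.5 beside 99.1 for the snoRNA, and a log2 fold change of -0.58 (SE 0.25, adjusted p = 0.808 in the authors' deposited table). Whether counting used strand is not given in the sources used here, so that reads of these members cannot be told apart from reads of the genes opposite them.

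Gene copies assigned to 1 rRNA base were compared by their summed reads, since how reads that match more than 1 copy were counted is not given in the sources used here. None of the 3 called members has a copy among the members. The highest sum was that of Me28S-C2645, whose 3 copies lie side by side in Uhg3. Their summed normalised reads were 520.4, 543.3 and 552.6 in the controls and 443.9, 512.8 and 542.7 in the Sxl-RAC libraries, with overlapping arms. Singly, Me28S-C2645b and Me28S-C2645c were at -0.18 and -0.19 and Me28S-C2645a at 0.27 in the authors' deposited table, none called. The 4 copies of Me28S-G1083 summed to 232.9 ± 31.2 (SD, n = 3) in control and 272.6 ± 9.38 (SD, n = 3) in Sxl-RAC. The 3 copies of Me18S-G1358 lie in 2 hosts, Me18S-G1358a and Me18S-G1358b in drn at -0.36 and -0.31 and Me18S-G1358c in RpL15 at 0.37 in the authors' deposited table, none called. The sum over the 3 copies was 268.4 ± 23.9 (SD, n = 3) in control and 231.3 ± 32.6 (SD, n = 3) in Sxl-RAC, with overlap. Copies of 1 base could differ widely in level, from 1.12-fold per length for the 2 copies of Me28S-A982 to 15.5-fold for the 3 of Me28S-G2703 and 52.3-fold for the 2 of Me28S-G3255.

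Other genes of rRNA modification and processing gave few calls. None of the 43 H/ACA guides of 18S rRNA with reads and none of the 59 of 28S rRNA was called by the authors' DESeq2 test, with 0 and 1 of them at an unadjusted p under 0.05. Only 4 and 12 of them reached a mean count of 10, so that changes of the size seen for the called members were mostly not detectable there. The 77 other snoRNA and scaRNA genes with reads held no call by that test either, with 5 at an unadjusted p under 0.05. On recovered reads limma called none of the H/ACA guides, with 2 of 43 18S guides and 7 of 57 28S guides at an unadjusted p under 0.05. At that limma threshold there were 11 of 69 members and 10 of 75 other snoRNA and scaRNA genes. Of those 75 others limma called 1, scaRNA:MeU2-G25, lower at a log2 difference of -0.89 (adjusted p = 0.0207). Its deposited log2 fold change was -0.92, with an adjusted p of 0.408 in the authors' deposited table. Of 17 rRNA and pre-rRNA genes, 5 had reads and 1 was called lower, pre-rRNA:CR45856, with a log2 fold change of -1.58 (SE 0.25, adjusted p = 2.96e-08 in the authors' deposited table). Of the 5, 3 had an unadjusted p under 0.05, and 4 lay below 0 and 1 above. The uncalled pre-rRNA:CR45845, pre-rRNA:CR45846 and pre-rRNA:CR45847 were at -0.81, -0.73 and -1.19, with adjusted p of 0.872, 0.229 and 0.348 in the authors' deposited table. The RNA of RNase MRP, an enzyme that cuts pre-rRNA, was at 0.51 (SE 0.74, adjusted p = 0.971 in the authors' deposited table).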

How the data were processed

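One table of the authors' comparison of Sxl-RAC with control was used. Per the submitters' processing notes, the tools were Trim Galore 0.6.7, Bowtie2 2.5.3, featureCounts 2.0.8 and DESeq2 2.11.40.8. The genome build, annotation and strand setting are not given in the sources used here. The deposited base mean is a signal, the mean over libraries of reads divided by size factors. The deposited fold change and standard error are log2 values, the deposited Wald statistic is a score, and the p-value and adjusted p-value are deposited as well. Benjamini-Hochberg adjustment within snoRNA genes returned every one of the 248 deposited adjusted values within 1%, against 135 when run over all classes.

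Symbols and coordinates came from Ensembl release 115, build BDGP6.54, which matched 3545 of 3546 identifiers. The members and lists were chosen with earlier results of these data known.

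Size factors and whole reads were recovered with Python 3.11.15 code, tested on simulated data for mean counts under 20 only. Recovery at higher means, where every called member lies, was not tested on simulated data. All 20 mean counts under 0.95 could be written as whole reads of 6 libraries. Of 62 divisions into arms, 1 gave the deposited fold changes of all 117 genes checked, and the next best gave 0. For means of 120 or more, each library was held within 2-fold of its arm's mean, and within 1.5-fold for means of 600 or more or where several sets remained, limits chosen after seeing the data. A single set found at such means is single only within these limits. Reads of 4 snoRNA genes, none a member, were not recovered. Median-of-ratios factors of the recovered reads lay within 0.911% of the recovered ones.

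Intervals are the deposited log2 fold change plus or minus the normal 95% multiple of its standard error. Whole-read values carry counting error beside library spread: the median SD between libraries of an arm, as a percent of the mean, was 12.3 in control and 14.9 in Sxl-RAC over 57 members, beside a median counting error of 13.5. Alternatives used limma 3.58.1 on log2 of normalised reads plus 1, other scalings, other adjustments and leaving out each recovered library. Fits without a library, and those scaled by total reads, kept each gene's dispersion from all libraries. The library left out therefore still shaped the p-value. Named members are those called, the 10 highest by mean count, the 5 highest and 5 lowest fold changes at a mean count of at least 10, the 8 smallest p-values, copies of called members, and members sharing a host with them. No sequences are shown, and the host gene of 1 member is not reported here.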

Additional observations from a re-analysis of the deposited data

How the results depend on the processing

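The count of 3 called members became 4 with a threshold of 0.1, with 1 adjustment over every gene with a p, with the same over genes whose mean count reached 10 and with limma, each adding Me28S-G3253. With limma these were 4 of 69 members, beside 0 of 43 H/ACA 18S guides, 0 of 57 H/ACA 28S guides and 1 of 75 other snoRNA and scaRNA genes. The other counts are given without a share over all snoRNA genes, so they do not set the members apart. The count of called members was 4 on the microRNA scale, where Me18S-A1806 was lost and Me28S-G3253 and Me28S-A2564 were added. It stayed at 3 after recentring on the median of all genes and with scaling by total snoRNA reads. Leaving out 1 recovered library gave 1 to 3 calls, Me18S-A425 in each case: the count was 1 without control A, Sxl-RAC B or Sxl-RAC C, and fewer libraries give less power. For Me18S-A1806, the fits by limma, by total reads and without 1 library used only the read set kept for it. The median log2 fold change of members, 0.06, was -0.0012 for mean counts of at least 50, -0.033 as a mean weighted by precision and -0.095 on the microRNA scale, and -0.0025 to 0.095 with 1 library left out. That of 18S guides ranged from -0.13 to 0.090 with 1 library left out, and that of 28S guides from 0.05 to 0.10 and was 0.19 without a filter. The sign of uncalled values near 0 turned: Me18S-C1831 was 0.010 after recentring, 0.037 scaled by total reads, 0.0052 with limma and -0.093 to 0.052 with 1 library left out. Me18S-A1061 was -0.095 on the microRNA scale and -0.18 to 0.24 with 1 library left out. Me28S-G2017 was -0.082 on the microRNA scale and -0.072 to 0.25 with 1 library left out. No other named member changed sign under any alternative tried. The cause of these differences was not tested beyond what each alternative changes. No paired analysis was possible because the table has no column per sample and the recovered libraries carry no replicate number. The planned search for sequence boxes was not run, as no sequences were at hand. Alternatives that use recovered libraries were chosen after seeing the data. Depth limits members with a mean count under 10, whose intervals span more than a 2-fold change.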
